A study of Mus musculus with 127 samples.

Results

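The cells described here were 21 single erythroblasts from the marrow of erythropoietin-treated mice, all captured on 1 microfluidic chip, SCP7, and divided by the class letter in their labels into 9 class B cells and 12 cells of class C (8 cells) or class D (4 cells). They were chosen by chip and class letter alone, which leaves out 3 class B and C cells of the other EPO chip, SCP6, and they were 21 of the 31 EPO-treated cells and of the 127 cells in the series. The mice were C57BL/6J, wild type in genotype and treated with erythropoietin (EPO). The dose, the schedule and the number of mice are not given in the labels, and no animal is named for any cell. The comparison asks how the transcriptome of an EPO-treated erythroblast differs between a lower and a higher level of Ter119, a surface antigen that accumulates as red cell precursors mature. Each cell was imaged for Ter119 on the chip before lysis, and its cDNA was amplified by the SMART-Seq method and sequenced. The wild-type and Flvcr-deleted cells set beside these at the end were C57BL/6J marrow erythroblasts too. Flvcr is a heme exporter, and these cells were captured on other chips.

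Erythroblasts mature through a few rapid divisions in which the cell shrinks, condenses and then expels its nucleus, and devotes a growing part of its messenger RNA to alpha and beta globin. Heme, made in the mitochondrion and cytosol from glycine, succinyl-CoA and iron, is supplied in step with globin, and its first enzyme in red cells is Alas2. EPO acts through its receptor and the kinase JAK2 on the transcription factor STAT5, whose targets include the feedback inhibitor Cish and Fam132b, the gene of the hormone erythroferrone, which lowers hepcidin and so frees iron for heme.

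Because no animal is named, the 21 cells stand for 1 sample with no replicate check. No test could be made and no p-value is given. Each SD or interval below is over these cells alone. Values are log2(RPKM + 1), where RPKM is a read number scaled to transcript length and to sequencing depth, and a difference is the mean of the 12 class C and D cells minus the mean of the 9 class B cells on that scale. On it the difference of a gene near 0 is understated. A gene was kept where the mean of both group means was at least 1, which left 2446 of 24320 symbols. A gene could thus be kept through its level in 1 group alone. It was counted as higher or lower where the difference reached 1 in either direction and classes C and D each lay on that side of class B. Detection in a cell means an RPKM of 1 or more.

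Normalized Ter119 ran from 0.0387 to 0.197 in class B, from 0.208 to 0.366 in class C and from 0.358 to 0.912 in class D. Adult globin, taken as Hba-a1 plus Hbb-b1 with near-identical copies left out, made up 7.44% to 61.8% of the summed RPKM of class B cells (median 22.0%). In class C it made up 24.5% to 84.4% (median 61.1%), and in class D 72.0% to 87.9% (median 80.6%). The number of detected genes was 993 to 3980 in class B (median 1627), 798 to 2257 in class C (median 1100) and 637 to 1514 in class D (median 1090.5). Depth in reads is not given, so the number of detected genes was used in its place. Whether that number follows depth was not tested, and it may itself differ with maturation. Class C and D cells thus held more globin and fewer detected genes, and the part of the second in each result below was not tested beyond the values given with it. Over the 21 cells Spearman's rho with Ter119 was 0.73 for the globin share and -0.35 for the number of detected genes.

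**Figure D1:**
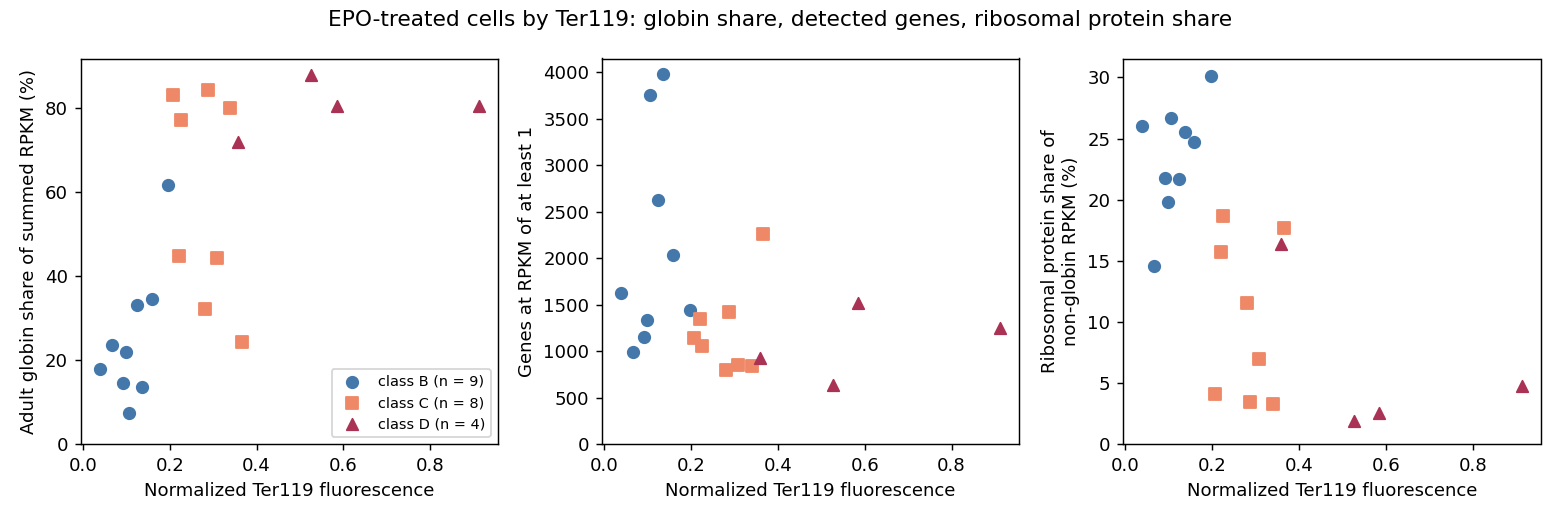
Each point is 1 EPO-treated cell, placed by its normalized Ter119 fluorescence. The 3 panels show the adult globin share of summed RPKM (%), the number of detected genes (RPKM of 1 or more), and the ribosomal protein share of the RPKM without globins (%). Globin share is highest in class D (72.0% to 87.9%), and the ribosomal protein share lies between 14.6% and 30.1% in class B.

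Of 9 defining erythroid genes in the table, 6 to 9 were detected in each of the 21 cells. Markers of granulocytes and monocytes, B cells, T and NK cells and macrophages were detected in 0 cells. The megakaryocyte gene Gp9 was detected in 3 class B cells and the basophil gene Prss34 in 1 class C cell. Cell 16 stood apart from its label: it had the highest Ter119 of class C (0.366), yet the lowest globin share of that class (24.5%) and the most detected genes (2257). The counts and the ribosomal protein medians are therefore also given without it, and without cell 16 the counts below were 139 genes higher and 1386 lower. Other results shifted too: the heat shock median was -3.04 without it and -2.47 with it, and Mcm4 -4.44 and -3.73. Cell 16 remains among the cells of like numbers of detected genes used below.

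Of the 2446 kept genes, 135 (5.52%) were higher in classes C and D and 1349 (55.2%) were lower, and the median gene was lower by 1.23 (median difference -1.23). The comparison thus mixes a few genes whose level was higher with a broad lower level, and every list below is read against these shares. In the 6 class B and 7 class C and D cells that shared a range of 993 to 2257 detected genes, the median difference was -0.24, with 399 genes higher and 595 lower. With quantile normalization, which gives every cell the same distribution of values, it was -0.09, with 590 higher and 783 lower. The lists were therefore also read in both of these settings. Genes were kept anew in each, so a list's median there can rest on partly different genes. Of 62 singly examined genes counted as higher or lower, 51 differed by 1 or more in the same direction in the cells of like numbers of detected genes, 7 by less (Atg4b, Epb4.1, Gata1, Npm1, Pcna, Pim1 and Psmb2), and 4 in the opposite direction (Ccne1, Gfi1b, H2afz and Stmn1). Such agreement was partly built in, since most of these genes were named for large differences in all the cells, which include those of this setting. The 399 genes higher and 595 lower there were out of 2169 kept.

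**Figure D2:**
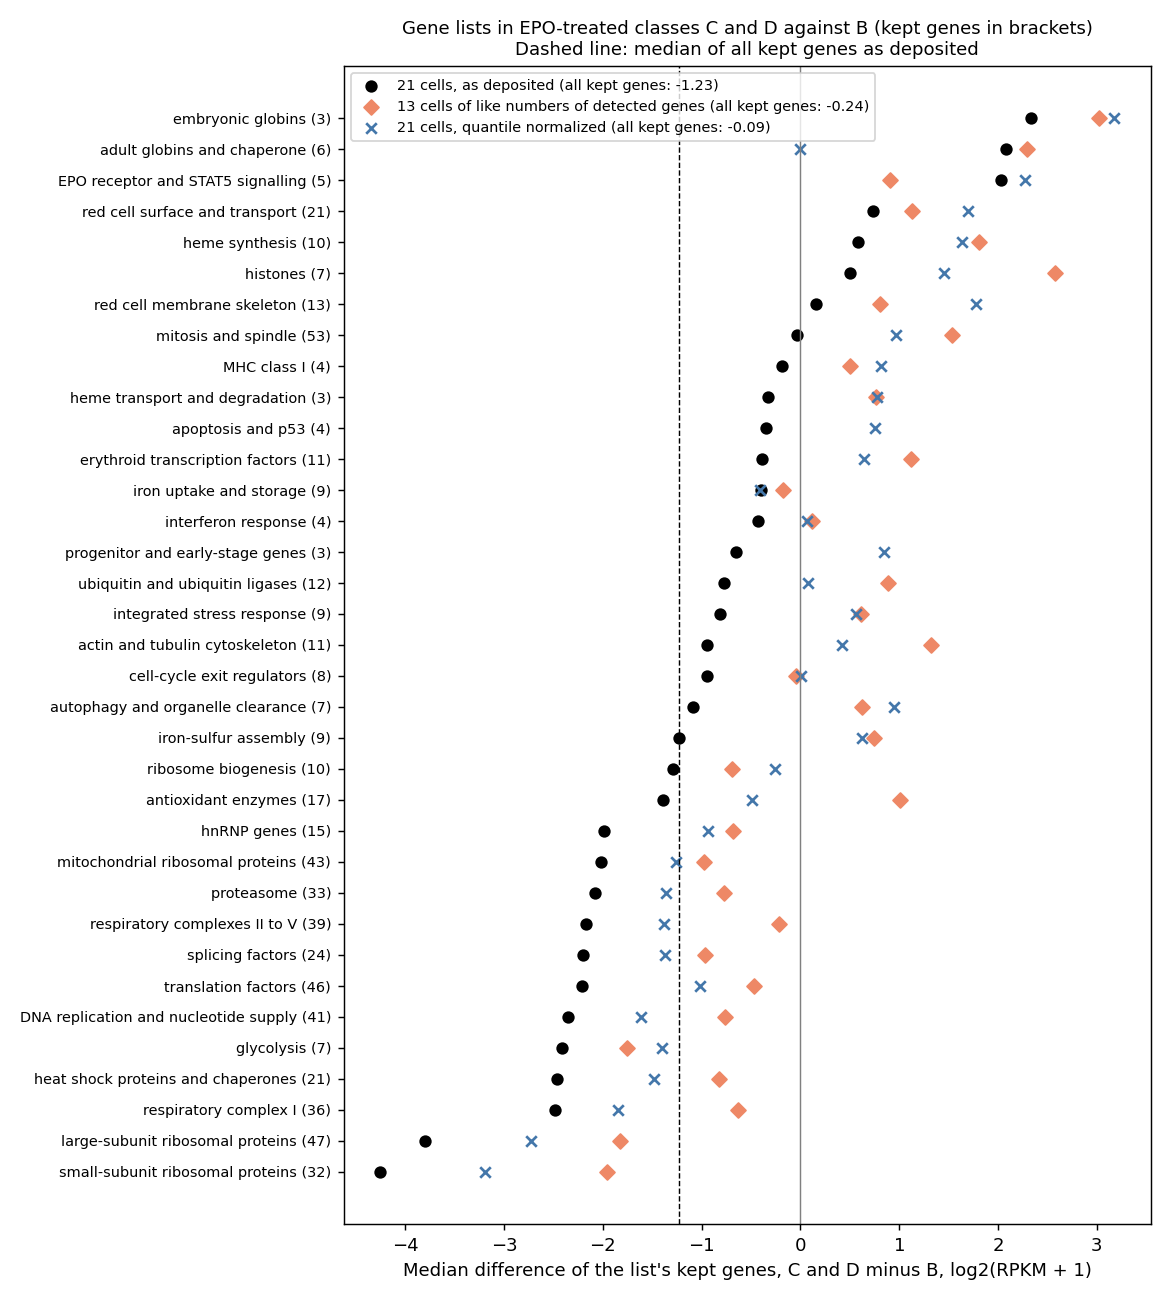
Each row is a gene list, and each symbol the median over its kept genes of the difference between classes C and D and class B, in log2(RPKM + 1). Black circles show the 21 cells as deposited, orange diamonds the 13 cells with like numbers of detected genes, and blue crosses quantile-normalized values. Ribosomal protein lists lie lowest as deposited (-3.80 and -4.25) and below 0 in all 3 settings, while the adult globins are near 0 only under quantile normalization.

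Adult globin genes were higher in the more mature classes, and heme synthesis genes were mixed. The adult beta globin gene Hbb-b1 had levels of 12.83 to 17.04 in class B (median 14.24) and 14.59 to 17.98 in classes C and D (median 17.58), a difference of 2.10. Its alpha partner Hba-a1 differed by 2.06, from a mean of 15.10 ± 1.38 (SD, 9 cells) to 17.16 ± 1.42 (SD, 12 cells). Both ranges overlapped: class B cell 15, with a globin share of 61.8%, lay above several class C cells. The 6 kept adult globin entries were all higher, but they are not 6 measurements, since Hba-a2 stood at 99.3% of Hba-a1 in every cell and the adult beta copies at 92.9% to 102% of Hbb-b1, so that the copies cannot be told apart. Under quantile normalization, which forces the highest values of all cells to be alike, the Hbb-b1 difference was -0.01.

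Transcripts assigned to embryonic globins were present in these adult cells at low levels beside adult globin. Hbb-bh1 was detected in all 21 cells, at 0.128% to 0.940% of Hbb-b1 RPKM (median 0.414%), and differed by 2.33 between the classes. Hbb-y had 2 states: in 10 cells (3 of class B and 7 of classes C and D) it lay at 0.263% to 0.413% of Hbb-b1, and in the other cells it was at or under 0.000542%. Its difference of 2.97 therefore holds both how many cells were in the upper state and its level there. That level was 6.15 to 8.73 in the class B cells and 9.34 to 9.60 in the class C and D cells. Hba-x exceeded 0.1% of Hba-a1 in 1 class B and 1 class C cell. How reads with several matches were treated is not given in the sources used here, so a share near that of a related gene's misassigned reads cannot be told apart from expression.

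Within heme synthesis, 4 of 10 kept genes (40.0%) were higher and 2 (20.0%) were lower, with a median difference of 0.59 beside -1.23 for all kept genes. Without any 1 of the 21 cells the median lay between -0.04 and 1.01, and it was 1.81 in the cells of like numbers of detected genes and -0.07 with every cell scaled to 1 sum. The mean level of the 10 genes had a median of 6.39 over class B cells and of 5.60 over class C and D cells, so the list as a whole had no single direction. Alas2, the first enzyme of the pathway (NM_001102446), had levels of 0.20 to 9.37 in class B (median 6.00) and 6.20 to 11.08 in classes C and D (median 9.96). It was detected in 8 of 9 class B cells and in all 12 others, and class B cells 11, 15 and 23 had the highest levels of their class (8.56 to 9.37). The difference of 3.25 was made at the step from B to C: class C exceeded class B by 3.06 and class D exceeded class C by 0.57. Over the other settings it lay between 2.28 and 4.13.

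Ppox, which oxidizes protoporphyrinogen in the penultimate step (NM_008911), ran from 0.00 to 6.93 in class B (median 2.68) and from 0.00 to 10.49 in classes C and D (median 6.37). The difference was 3.39, with 6 of 9 class B cells and 11 of 12 others having the gene detected (7 of class C and 4 of class D). Slc25a39, a mitochondrial carrier that imports glutathione, was higher by 3.14, with detection in 3 of 9 class B and 8 of 12 class C and D cells. Slc25a37, the mitoferrin that brings iron into erythroid mitochondria, was higher by 1.83 from a low level (mean 0.64 in class B). In the other direction, Uros, the enzyme that closes the tetrapyrrole ring, was lower by 3.67 (difference -3.67), and Tmem14c, an inner-membrane protein needed for porphyrin transport, by 3.44 (difference -3.44). In cells of like numbers of detected genes these were -1.59 and -2.49. Tmem14c was detected in 9 of 9 class B cells at 7.18 to 10.79 and reached 10.12 in class C, so the groups overlapped. The named enzymes and carriers of the pathway thus differed in direction.

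Genes for iron entry showed no common direction. Tfrc, the transferrin receptor, was at 0.00 to 9.22 in class B (median 6.73) and at 0.06 to 11.69 in classes C and D (median 8.14), a difference of 0.55 that was under the size used here. It was -0.73 in cells of like numbers of detected genes and -0.60 with every cell scaled to 1 sum, so its direction depends on the setting. Class D cells, at 7.54 to 9.90, exceeded class C by 2.43, and class C lay 0.26 below class B (difference -0.26). Of 9 kept genes of iron uptake and storage, 1 was higher and 3 were lower. Of 9 iron-sulfur assembly genes, 2 were higher and 5 lower (median -1.23, the same as all kept genes), but the median was 0.75 in cells of like numbers of detected genes. Among 3 kept heme transport and degradation genes, Abcg2, a porphyrin and heme efflux pump, differed by -0.32, and Blvrb, a biliverdin reductase abundant in red cells, by -0.25. Both signs turned in cells of like numbers of detected genes, to 0.77 and 1.52.

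Cish, Fam132b and Pim1, which EPO induces through STAT5, were counted as higher in classes C and D. Of 14 genes of the EPO receptor and STAT5 list, 5 were kept. Of these, 3 were higher (60.0%) and 1 was lower (20.0%), with a median difference of 2.03. The filter itself can raise these values: Fam132b passed it through its class C and D mean of 3.79, beside 0.69 in class B. The list's median was 0.91 in cells of like numbers of detected genes and 0.34 with no filter on low values, each over the genes kept there. Cish (NM_009895) was listed at 0 or below an RPKM of 1 in 7 of 9 class B cells, and reached 3.40 and 5.64 in cells 15 and 11. In class C it was detected in 5 of 8 cells, at 1.56 to 9.43, and in class D in 3 of 4 cells, at 6.63 to 9.80. The detected share was 22.2% in class B (exact 95% interval 2.81% to 60.0%) and 66.7% in classes C and D (34.9% to 90.1%), intervals that cover counting error only and overlap. The mean difference was 3.44, and 1.82 among cells of like numbers of detected genes.

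Fam132b, which encodes erythroferrone (NM_173395), was detected in 1 of 9 class B cells, cell 11 at 5.11. It was detected in 6 of 8 class C cells at 2.79 to 7.82 and in 2 of 4 class D cells at 5.73 and 5.91. The difference was 3.10, and 2.67 among cells of like numbers of detected genes. Cish and Fam132b were detected together in 1 class B, 5 class C and 2 class D cells, and their levels had a Spearman rho of 0.77 over the 21 cells, which share 1 chip. Pim1, a STAT5-induced kinase that favours survival, was higher by 2.03, with detection in 4 of 9 class B, 6 of 8 class C and 3 of 4 class D cells, but by 0.32 in cells of like numbers of detected genes. Mcl1, a BCL2-family survival protein, was higher by 2.24 from a mean of 0.40 in class B. The D-type cyclin gene Ccnd3, placed in the same list as an EPO-responsive gene, went the other way: it was at 0.12 to 8.14 in class B (median 5.98) and at 0.00 to 8.20 in classes C and D (median 3.30), a difference of -2.28.

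**Figure D3:**
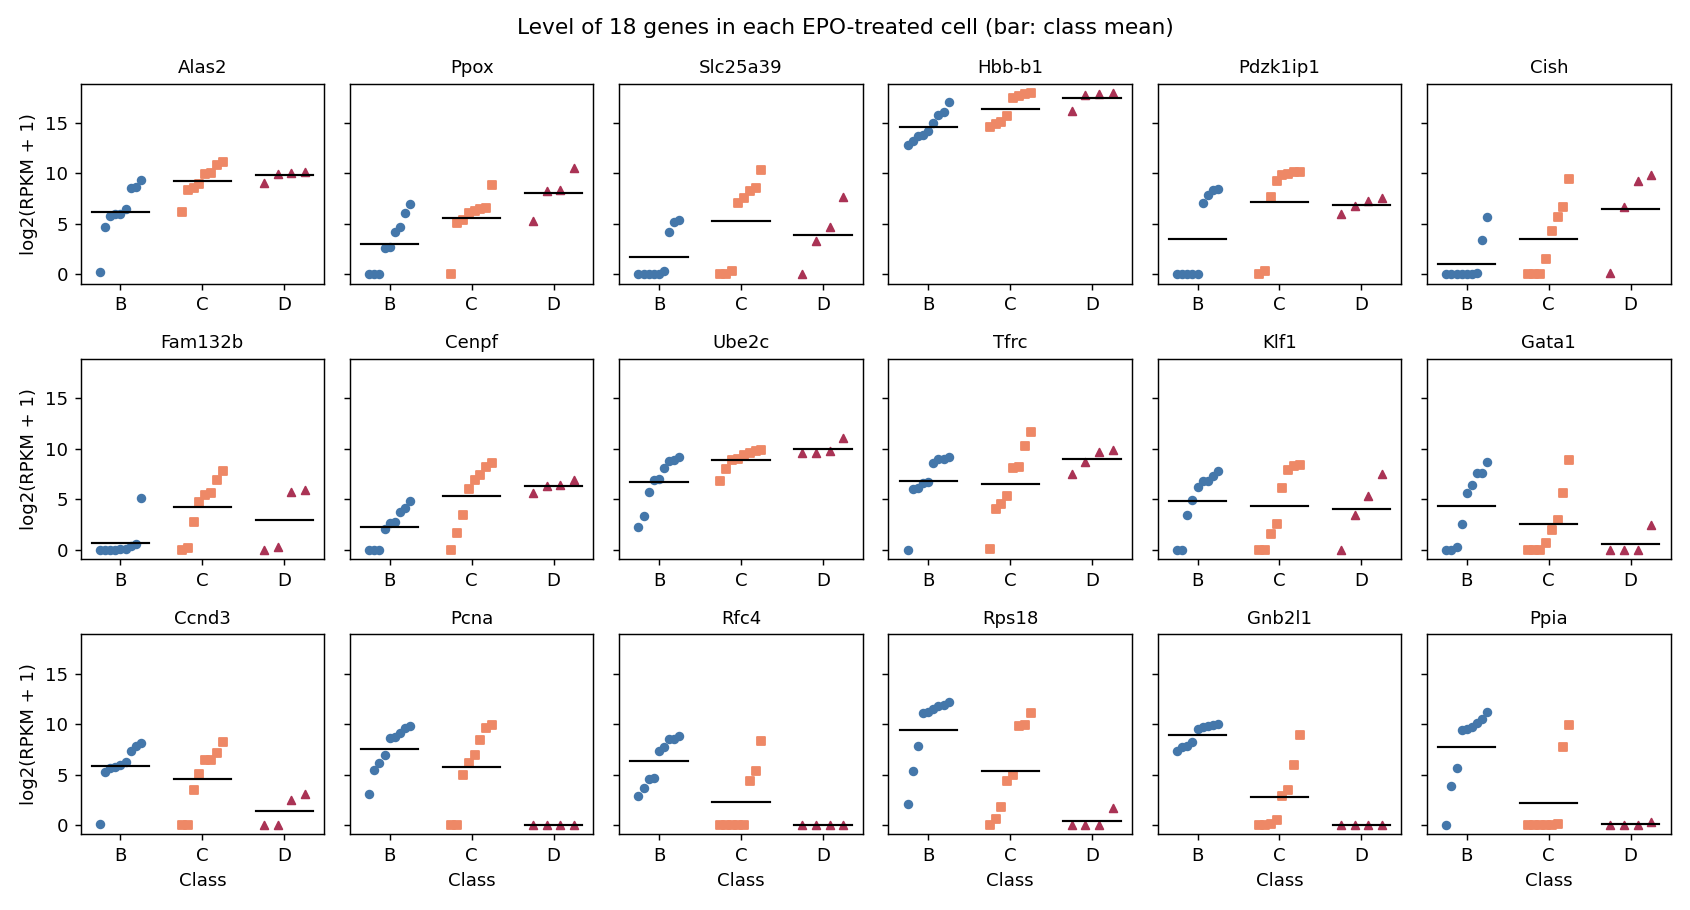
Each point is 1 cell, each panel 1 gene, and the vertical axis its level in log2(RPKM + 1); the bar is the class mean. Alas2, Ppox, Cish and Cenpf are higher in classes C and D, many cells are at 0 for Cish and Fam132b, and Pcna, Rfc4 and Gnb2l1 are at 0 in all 4 class D cells while every class B cell has them.

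Erythroid transcription factors did not share a direction: 3 of 11 kept genes were higher, 4 were lower, and the median difference was -0.39. The sign of this median turned in other settings, to 1.12 in cells of like numbers of detected genes and 0.64 with quantile normalization. Gata1, the factor that activates globin and heme genes (NM_008089), was detected in 6 of 9 class B cells, 4 of 8 class C cells and 1 of 4 class D cells. Its level was 0.00 to 8.67 in class B (median 5.57) and 0.00 to 8.85 in classes C and D (median 0.35), a difference of -2.41 that was -0.98 in cells of like numbers of detected genes. Klf1, which acts with Gata1 at many red cell genes, was detected in 7 of 9, 6 of 8 and 3 of 4 cells and differed by -0.57. In the cells of like numbers of detected genes that difference was 2.19, so its direction depends on the cells compared. Klf3, a repressor that Klf1 induces, was higher by 2.16. Gfi1b, a repressor that shapes the erythroid lineage, differed by -1.71, and by 0.55 in cells of like numbers of detected genes. Kit, the stem cell factor receptor of earlier progenitors, was listed at 0 in all 21 cells.

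Genes of the red cell surface and membrane skeleton lay above the median gene. Of 21 kept surface and transport genes 6 (28.6%) were higher and 4 (19.0%) lower, with a median difference of 0.74. Slc4a1, the band 3 anion exchanger, was detected in 7 of 9 class B cells and in 11 of 12 others and differed by 0.94, just under the size used here. Icam4, a blood group adhesion protein, was higher by 1.96, most of it in class D, which exceeded class C by 2.84. Of 13 skeleton genes 3 were higher and 4 lower. Dmtn, the actin-bundling protein dematin, was higher by 2.34 and Epb4.1, protein 4.1, by 1.21, the latter in class D rather than class C (2.84 higher in D) and by 0.87 in cells of like numbers of detected genes.

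Pdzk1ip1, a small membrane protein, was the gene with the largest positive difference, 3.53. It was detected in 4 of 9 class B cells at 7.06 to 8.49 and was at 0.00 in the other 5, while 6 of 8 class C cells had it at 7.67 to 10.16 and all 4 class D cells at 5.95 to 7.60. The shift was thus in how many cells had the transcript more than in its level where present. Grina, a membrane protein of the ER and Golgi, was higher by 2.64.

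The genes with the largest negative differences were ribosomal protein genes and the ribosome-bound scaffold Gnb2l1 (NM_008143), which is now called Rack1. All 47 kept large-subunit genes and all 32 kept small-subunit genes were lower, beside 55.2% of all kept genes, with median differences of -3.80 and -4.25. Gnb2l1 was at 7.37 to 10.03 in class B and at 0.00 in all 4 class D cells, and only cell 16 of class C (8.94) reached the class B range. Rps18 was at 2.10 to 12.19 in class B (median 11.21), at 0.00 to 11.12 in class C and at 0.00 to 1.70 in class D. The difference between classes D and C for Rps18 was -4.91.

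These transcripts are made by every cell, so a value of exact 0 can be a failed estimate. Of 83 ribosomal protein genes, 4 were listed at 0 in 6 of the class B cells and 13 to 33 in cells 8, 12 and 23, against 4 to 52 in class C and 18 to 45 in class D. The share of RPKM without globins that fell to ribosomal proteins was 14.6% to 30.1% in class B and 1.86% to 18.6% in classes C and D, and the cells above 15% in the latter were 3, 14, 16 and 22. Over the 21 cells the mean level of ribosomal protein genes had a Spearman rho of 0.83 with the number of detected genes and of -0.64 with the globin share. In the cells of like numbers of detected genes the medians were -1.83 for the large and -1.96 for the small subunit, beside -0.24 for all kept genes. Under quantile normalization they were -2.73 and -3.19. Without cell 16 they were -4.17 and -4.67. Over the 14 settings tried beside leaving out single cells, the large-subunit median ran from -5.38 to -1.83 and the small-subunit median from -5.09 to -1.96.

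**Figure D4:**
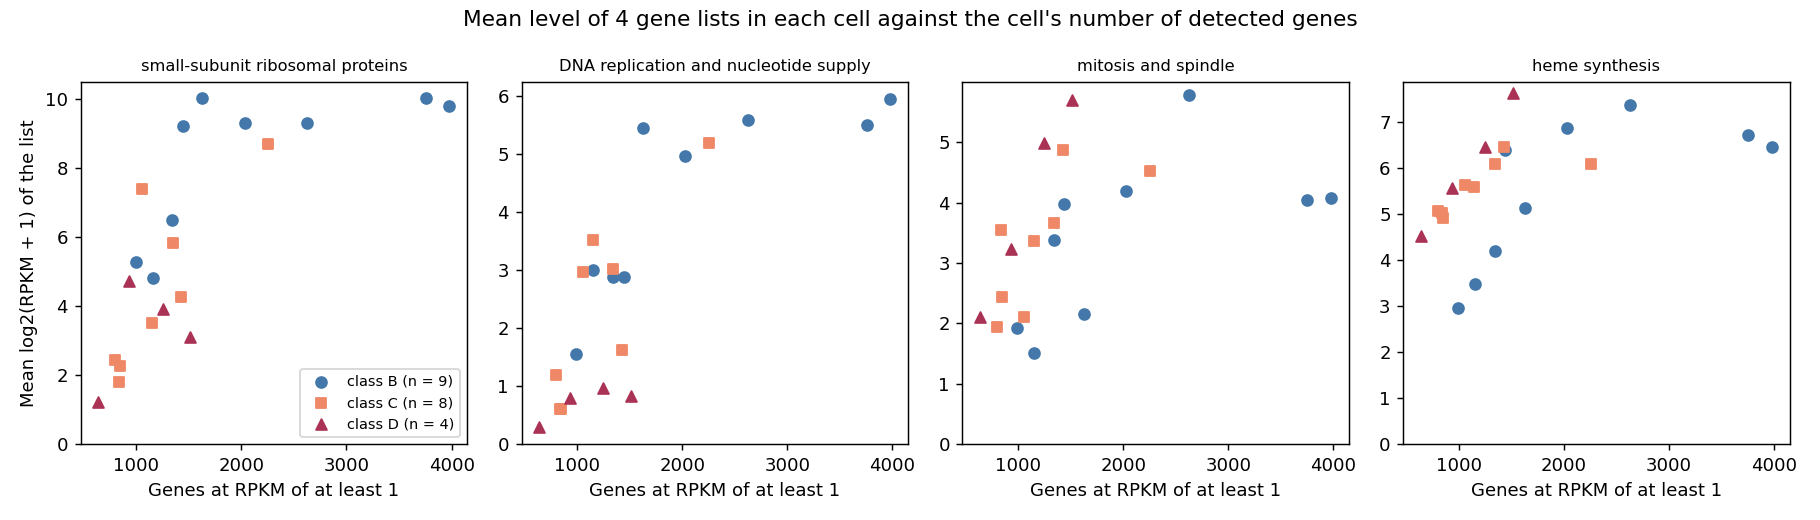
Each point is 1 cell, placed by its number of detected genes (RPKM of 1 or more) and by the mean log2(RPKM + 1) of a list's kept genes. Small-subunit ribosomal protein and DNA replication levels are lower in class B cells with fewer detected genes, and class D cells lie at 0.29 to 0.96 for DNA replication whatever their gene number. Mitosis and heme synthesis levels of class C and D cells mostly lie level with or above class B cells of like gene number, with cell 16 an exception for heme synthesis.

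Messages of the ribosome begin with a run of pyrimidines through which their translation is regulated, and the start sites of 2 such genes that were at or near 0 in class D are shown for this feature. The annotated starts of Rps25 and Rpl12, also looked at, had a run of 0 and are not shown. The windows below hold 20 bases before and 10 bases from the annotated start (RefSeq, GRCm38.p6, gene strand, 5′ to 3′). Capitals mark the pyrimidines in a row from the first transcribed base.
Rps18 (chr17:33955656-33955685, minus strand): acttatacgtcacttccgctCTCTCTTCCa
Gnb2l1 (chr11:48800340-48800369, plus strand): tccggcggaggccgctctttCTTTTTCTCC
Such a start, a C followed by at least 4 more pyrimidines, was found for 14 of 59 ribosomal protein genes with a sequence (23.7%). The share was 3.01% of all 27025 genes in the table and 3.66% of the kept genes. It was 3.98% of the genes that were lower, which include all of these ribosomal protein genes. Of 110 genes that were higher, 2 (1.82%) had such a start. A run that begins a few bases from the annotated first base was not counted, and the shares describe the annotation alone.

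The promoter of Alas2 is shown for comparison, as that of a heme gene detected in every class C and D cell. The 250 bases before its start (chrX:150547167-150547416, plus strand, RefSeq, GRCm38.p6) are given with a match to the GATA motif in capitals.
Alas2: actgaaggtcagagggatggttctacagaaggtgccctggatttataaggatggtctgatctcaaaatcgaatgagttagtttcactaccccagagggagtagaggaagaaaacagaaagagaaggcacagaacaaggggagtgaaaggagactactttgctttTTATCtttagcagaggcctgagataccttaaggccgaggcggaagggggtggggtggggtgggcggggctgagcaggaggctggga
The motif was searched as GATAA on both strands, and its match, on the other strand, begins 86 bases before the start. Of other higher genes searched, Cish had 1 match, and the heme gene Ppox and Pdzk1ip1 had 0. Of all 32851 start sites, 22.6% held 1 or more matches in the 250 bases before them. The STAT motif, searched as TTCNNNGAA, had 0 matches in the same stretch of Alas2 and of Cish, and 7.02% of all start sites held it. These are matches of letters and not measured binding.

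Other housekeeping groups lay below the median gene as deposited. Of 46 kept translation factor genes 37 (80.4%) were lower and 0 higher (median -2.21), of 36 respiratory complex I genes 29 (80.6%, median -2.49), of 39 genes of complexes II to V 31 (79.5%, median -2.17), of 33 proteasome genes 27 (81.8%, median -2.08) and of 24 splicing factor genes 19 (79.2%, median -2.20). Examples were Eif3i, an initiation factor subunit (-4.30), Ndufs7 of complex I (-4.57), Atp5g1 of the ATP synthase ring (-4.73), the proteasome subunit gene Psmb2 (-3.44) and the Sm protein gene Snrpg (-4.88). Among cells of like numbers of detected genes these medians were -0.47, -0.64, -0.21, -0.77 and -0.96, so most of their distance from 0 was not seen there, and Psmb2 was at -0.77. More of it remained with quantile normalization, where the medians were -1.02, -1.85, -1.38, -1.36 and -1.37, beside -0.09 for all kept genes. Of 7 glycolysis genes 6 were lower (median -2.41). Their median was -1.75 in the cells of like numbers of detected genes and -1.40 with quantile normalization. Gapdh, of the middle of the pathway, differed by -3.64. Ldha, lactate dehydrogenase A, was detected in 4 of 9 class B cells at 7.27 to 8.36 and was listed at 0 in all 12 others.

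Heat shock and folding genes were mostly lower, with 18 of 21 lower and a median of -2.47. It was -0.82 in cells of like numbers of detected genes and -1.49 with quantile normalization. The constitutive chaperone gene Hspa8 was at 8.92 or above in 7 of 9 class B cells, at 9.97 to 11.30 in class C cells 3, 16 and 26, and below an RPKM of 1 in all 4 class D cells. Ppia, the abundant prolyl isomerase cyclophilin A, was lower by 6.28 (difference -6.28), with detection in 8 of 9 class B cells and, of the others, in class C cells 3 and 16 only. Car1, carbonic anhydrase 1, was at 7.33 to 11.00 in 7 class B cells and was detected in class C cells 16 and 22 only. Of 17 antioxidant genes 10 were lower, among them Txn1, thioredoxin (-3.55), while Gclm, a subunit of the enzyme that limits glutathione synthesis, was higher by 2.37, and all 4 class D cells had it at 4.85 to 8.13. The median of this list was -1.39, and it was 1.01 in cells of like numbers of detected genes and -0.49 with quantile normalization.

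DNA replication genes and mitosis genes parted. Of 41 kept replication and nucleotide supply genes, 39 (95.1%) were lower and none was counted as higher, and their median difference was -2.36. The mean level of this list was 1.55 to 5.95 in class B cells (median 4.96), 0.60 to 5.19 in class C (median 2.30) and 0.29 to 0.96 in class D (median 0.81). Class D cells thus all lay below the lowest class B cell. Pcna, the sliding clamp (NM_011045), was at 3.11 to 9.85 in class B, was detected in 6 of 8 class C cells at 4.96 to 9.90, and was at 0.00 in all 4 class D cells. Rfc4, of the clamp loader, was at 2.84 to 8.86 in class B, was detected in 3 of 8 class C cells and was at 0.00 in class D. Mcm3 and Mcm4, helicase subunits, differed by -4.49 and -3.73. With both clamp genes and Gnb2l1, 6 genes of 2446 (0.245%) were detected in every class B cell and in 0 of 4 class D cells, the others being Apopt1, Mrpl33 and Srrm1. These 6 were chosen after their values were seen. In cells of like numbers of detected genes, where class D has 2 cells, the median of the list was -0.77 and the Pcna difference was -0.99. With quantile normalization of all 21 cells these were -1.61 and -3.24.

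Mitosis and spindle genes had a median difference of -0.03, with 7 of 53 (13.2%) higher and 6 (11.3%) lower, where 55.2% of all kept genes were lower. The mean level of the list was 1.51 to 5.78 in class B, 1.93 to 4.87 in class C and 2.10 to 5.70 in class D. Cenpf, a kinetochore protein made in late cell cycle, was at 0.00 to 4.82 in class B (median 2.65) and at 0.00 to 8.58 in classes C and D (median 6.35), a difference of 3.38. It was at 5.66 or above in all 4 class D cells. Ube2c, the ubiquitin-conjugating enzyme of the anaphase-promoting complex, was detected in all 21 cells, at 2.26 to 9.23 in class B (median 6.99) and at 6.77 to 11.05 in classes C and D (median 9.56), a difference of 2.58. Prc1, which bundles microtubules of the spindle midzone, was higher by 2.89. Over the 14 other settings the median of the list ranged from -0.68 to 1.53, with the highest value in cells of like numbers of detected genes. The cell cycle regulators named by the rule included Cdk4 (-2.23) and Ccne1 (-2.08), and Ccne1 was 0.13 in the cells of like numbers of detected genes. Of 7 kept histone genes 1 was higher, Hist1h2bc (2.62), and 1 was lower, the variant gene H2afz (-1.78), whose difference was 0.01 in those cells.

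Stress response, clearance and ubiquitin genes were mixed. Of 9 kept integrated stress response genes 2 were higher and 3 lower. Atf4, the factor translated when eIF2 is phosphorylated, was higher by 1.55, and Ppp1r15a, the phosphatase subunit that reverses that phosphorylation, by 1.62. Both owed this to class D, which exceeded class C by 3.24 and 3.29. Without the 6 cells under 1000 detected genes the Atf4 difference was -0.12. Bnip3l, the receptor for mitochondrial clearance, differed by -0.06, while Gabarapl2, an autophagosome protein, was higher by 2.22 and Atg4b, which processes such proteins, differed by -2.31. In cells of like numbers of detected genes these 3 differences were 2.35 for Bnip3l, 4.22 for Gabarapl2 and -0.19 for Atg4b. Trim10, an erythroid ubiquitin ligase, was higher by 1.59. Stmn1, a tubulin-destabilizing protein of dividing cells, differed by -2.71, and by 0.66 in cells of like numbers of detected genes.

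Classes C and D also differed from each other, as class D had 424 kept genes (17.3%) higher by 1 or more and 687 (28.1%) lower. Leaving out class C cell 16 gave 534 higher and 545 lower, so most of the excess of lower genes was not seen without that cell. The largest positive differences were in Ccnb1, the mitotic cyclin B1, by 5.60, and in Adipor1, an adiponectin receptor, by 5.49. Ccnb1 was at 2.52 to 9.20 in class D and was detected in 2 of 8 class C cells (5.54 and 6.20), but it was at 6.24 to 8.06 in 5 class B cells. Its mean was therefore lowest in class C. Adipor1 was at 4.73 to 8.28 in class D, at 0.00 to 3.17 in class C and at 0.00 to 4.27 in class B, so class D stood above both. Ube2l6, an enzyme for ubiquitin and ISG15 that red cell precursors express, was at 7.82 to 11.06 in class D and exceeded class C by 4.39. In the other direction were Pcna (-5.75), Rps18, Hspa8 (-4.85) and E2f2, a cell cycle factor needed in late erythroblasts (-4.53). E2f2 was at 1.65 to 9.99 across classes C and D, with all 4 class D cells at 2.59 or less. Slc43a1, an amino acid transporter, differed by -3.99. Class D had 4 cells, so each such value rests on few cells.

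A comparison of the same class letters is available in the 2 other groups of the series, with 32 against 10 wild-type cells and 14 against 16 Flvcr-deleted cells. The class letters cover other Ter119 levels there: class B ran from 0.330 to 0.541 in wild-type and from 0.313 to 0.494 in Flvcr-deleted cells, beside 0.0387 to 0.197 here, and classes C and D began at 0.551 and 0.574, beside 0.208. The differences therefore span different ranges of normalized Ter119, and whether that scale is shared between chips is not given in the sources used here. Whether the groups differed was not tested, and each group was captured on chips of its own, so the effects of group and chip cannot be told apart. Genes were kept by their levels in EPO-treated cells alone, which favours genes that are high there. In wild-type class B and classes C and D, the means were 0.00 and 0.60 for Cish and 0.45 and 0.07 for Fam132b. The median of the same kept genes was -0.68 in wild-type and -0.35 in Flvcr-deleted cells, beside -1.23 in EPO-treated cells. Adult globin entries had medians of 1.19 and 2.21 beside 2.08, and Alas2 differences of 1.71 and 1.91 beside 3.25. Cish differed by 0.60 in wild-type cells, where 0 of 10 class B and 4 of 32 class C and D cells had it, and by 1.65 in Flvcr-deleted cells (6 of 16 and 10 of 14). Fam132b differed by -0.39 and 0.50 and was detected in 1 of 32 wild-type and 5 of 14 Flvcr-deleted cells of classes C and D. Gata1 differed by -0.44 in wild-type cells, of which 10 of 10 class B and 31 of 32 others had it, and by -0.57 in Flvcr-deleted cells. Large-subunit ribosomal protein genes had medians of -1.86 and -0.89 beside -3.80. DNA replication genes had -1.70 in wild-type and 0.15 in Flvcr-deleted cells beside -2.36.

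**Figure D5:**
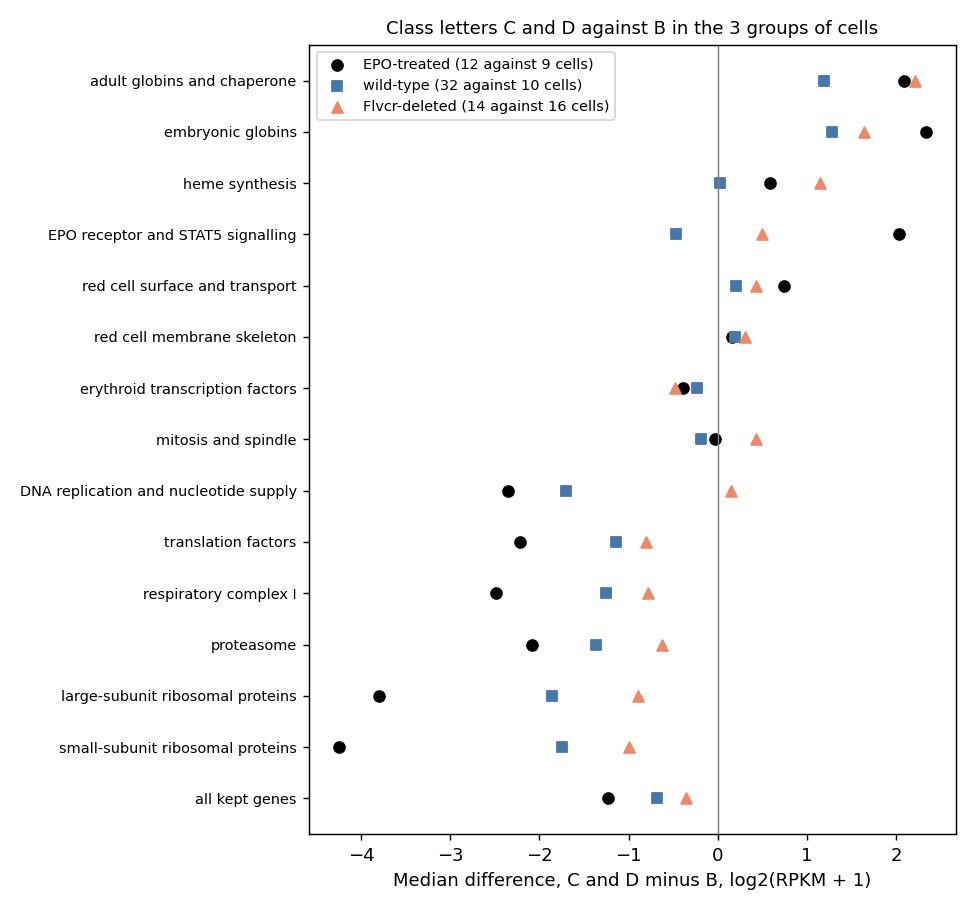
Each symbol is the median difference between classes C and D and class B over the kept genes of a list, in log2(RPKM + 1), in EPO-treated (black circles), wild-type (blue squares) and Flvcr-deleted cells (orange triangles), whose class letters cover different Ter119 ranges. Ribosomal protein lists lie at -3.80 and -4.25 in EPO-treated cells and between -0.89 and -1.86 in the other groups, and the EPO receptor and STAT5 list lies at 2.03, -0.47 and 0.50. Genes were kept by their levels in EPO-treated cells alone, and Cish and Fam132b of the last list lay near 0 in wild-type cells.

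Short transcripts differed more than long ones as deposited. The median difference was -2.12 for 394 kept genes under 1 kb, -1.44 for 710 genes of 1 to 2 kb, -0.94 for 823 genes of 2 to 4 kb and -0.85 for 494 longer genes. Ribosomal proteins made up part of this: without them the value under 1 kb was -1.88. The 55 ribosomal protein genes under 1 kb had a median of -4.09, so they lay below other short genes by more than the difference between the length classes. Why short transcripts lay lower was not tested.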

How the data were processed

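The unit was RPKM: the authors deposited a single table of transcripts by cells, identified by RefSeq. The submitters' processing notes name TopHat2 2.0.9 and the build mm9. The sources used here give neither the counting tool nor the read depths. The table has 4 further columns of no sample, which were left out. Values of EPO-treated cells carry at most 2 decimals, unlike the others.

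A symbol with several of the 34898 rows was represented by the row of highest mean. Values were taken as log2(RPKM + 1), with genes kept at a mean of at least 1. The rule for named genes took the 12 largest differences in each direction, the 4 largest of each of 35 lists, 12 genes in any case, and the 6 largest in each direction of D minus C, and the text names part of these. The cells, lists and genes were chosen with earlier results of these data known. Other settings were a pseudocount of 0.1 or 10, other filters and scalings, other sets of cells, and each cell left out. The functions were tested on simulated data. Transcript lengths came from an annotation of another build than mm9 and covered 99.0% of kept genes. Python 3.11.15, pandas 2.3.3, numpy 2.4.6 and scipy 1.17.1 were used. No paired analysis was possible because the cells carry no number that links classes.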

Additional observations from a re-analysis of the deposited data

Results flagged for a closer look

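Values that stood far from the rest of their class were looked for in classes B, C and D by Dixon's criterion. Chance meets this criterion in about 1 of 20 groups only for normally distributed values, and many genes here were undetected in several cells. Where all other cells of a class shared the same value, any cell that differed met it, however small the difference. Mcm4 in class D cell 13 (0.0286) was such a case. Of 313 groups of values, 49 held a cell that met the criterion (15.7%), and the lists share genes with the single values. That share therefore cannot be read as an excess over 1 of 20. All values are log2(RPKM + 1).

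Class C cell 16 accounted for 13 of the 49. It was highest in its class for the mean level of translation factors (4.06), mitochondrial ribosomal proteins (3.36), proteasome (5.03), splicing factors (5.52), glycolysis (2.88) and heat shock proteins and chaperones (6.16). It was also highest for Mcm3 (7.36), Mcm4 (8.87), Cdk4 (6.27), Eif3i (7.28), Atp5g1 (2.68) and Psmb2 (8.64), and lowest for Ppox (0.00). Its 2257 detected genes, the most of class C, and its globin share of 24.5%, the least, go with these values, and their part was not tested.

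Class D cell 14 was lowest of its class for Hbb-b1 (16.19), Hbb-y (0.00), the embryonic globin level (4.15) and Ccnb1 (2.52), and highest for Ube2c (11.05), Rps18 (1.70), Rps25 (5.53) and Atg4b (0.14). Its Ter119 of 0.358 was the lowest of class D. Class D cell 27 was highest for Gata1 (2.45), Npm1 (5.81), Atp5g1 (3.27) and Psmb2 (6.87), cell 18 for H2afz (10.47) and Txn1 (3.63), and cell 13 for Ppia (0.33), Car1 (0.0704) and Mcm4 (0.0286), each of which is below detection.

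In class B, cell 11 was highest for Fam132b (5.11), Hist1h2bc (0.28, below detection) and the EPO receptor and STAT5 level (4.42). Cell 19 was highest for Mcl1 (3.53) and cell 6 for Dmtn (2.80). Cell 8 was lowest for Rpl36, Txn1, Blvrb and Abcg2 (0.00 each), cell 1 for Tfrc (0.00), and cell 12 for Rps20 (0.43), Tmem14c (7.18), Ccnd3 (0.12) and Ndufs7 (0.00). In class C, cell 2 was highest for Hba-x (10.68), cell 3 lowest for Slc4a1 (0.11), and cell 26 lowest for H2afz and Blvrb (0.00 each) and for the level of erythroid transcription factors (1.38).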

How the results depend on the processing

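Beside leaving out each of the 21 cells, 14 other settings were tried. Of 478 results for the 35 lists, 444 differed from the value reported by less than the spread between cells (1 SD), 25 moved by more, and 9 changed the sign of a difference of 1 or more. Of 1022 results for 73 single genes, these numbers were 1000, 16 and 6. The spread between single cells was wide, so a result within it can still have changed much. In the shared range of detected genes Klf1 was at 2.19 against -0.57 (SD 3.24). The proteasome median was -0.77 there against -2.08 (SD 1.70). Both were within 1 SD, so these numbers do not measure how stable the results were.

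The counts moved most. Against 135 genes higher and 1349 lower, a pseudocount of 10 gave 56 and 700, a filter at a mean of 3 gave 51 and 394, quantile normalization 590 and 783, and cells in the shared range of detected genes 399 and 595. Genes higher numbered 74 with 1 sum per cell, 232 with 1 sum without globins, 349 with class D only, and 220 without the cells of under 1000 detected genes, a setting chosen after seeing the data. Leaving out single cells gave 108 to 155 higher and 1156 to 1525 lower. The share of higher genes among those counted was 9.10%, against 43.0% with quantile normalization, 40.1% in the shared range and 21.3% with class D only. For D minus C, against 424 higher and 687 lower, a pseudocount of 10 gave 183 and 256, the filter at 3 gave 154 and 221, no filter 718 higher, quantile normalization 666 higher, no cells under 1000 detected genes 645 higher, and medians over cells 357 lower. The median of all genes ran from -1.94 to -0.09 over the settings.

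With quantile normalization the medians were -0.0044 for adult globins, 0.62 for iron-sulfur assembly, 0.85 for progenitor genes, 1.70 for surface, 1.78 for skeleton, 0.94 for autophagy and 0.75 for apoptosis genes, and Hbb-b1 was at -0.0104. With 1 sum per cell, iron uptake was at -1.68 and the skeleton at -0.78, and without globins iron-sulfur assembly was at 0.15 and autophagy at 0.0817. With no filter the EPO and STAT5 list was at 0.34. With class D only the skeleton was at 1.04 and autophagy at 0.35. With medians over cells the values were 3.63 for EPO and STAT5, -0.5850 for mitochondrial ribosomal proteins, -4.68 for complex I, -4.01 for complexes II to V, -3.81 for the proteasome, -3.95 for splicing, -0.73 for glycolysis and -2.72 for the integrated stress response. In the shared range they were 0.75 for iron-sulfur assembly, 1.12 for erythroid transcription factors, 0.63 for autophagy, 0.89 for ubiquitin, -0.77 for replication, 1.53 for mitosis, -1.96 for small-subunit ribosomal proteins, -0.47 for translation factors, -0.64 for complex I, -0.21 for complexes II to V, 2.57 for histones and 1.01 for antioxidant genes. There Gfi1b was at 0.55, H2afz at 0.0058, Ccne1 at 0.13 and Stmn1 at 0.66, each of the opposite sign to the main value. Without the cells of under 1000 detected genes Atf4 was at -0.12. Leaving out single cells gave iron-sulfur assembly -1.74 to 0.10, the highest without class B cell 1. Lists with too few kept genes gave no value: 9 lists with the filter at 3, the progenitor and apoptosis lists in the shared range, the progenitor list with class D only, and the apoptosis list without class B cell 19. The cause of these changes was not tested. No paired analysis was possible because no number links cells of different classes. Read depth per cell is not given in the sources used here.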
